A study of Homo sapiens with 12 samples.

Results

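The genes described here build, bind and trim the extracellular matrix: integrin subunits, laminin chains, collagens other than COL1A1, COL1A2 and COL3A1, the ADAM and ADAMTS proteases, and the TIMP inhibitors. They were chosen by a rule on their symbols, and 83 of the 8545 genes on the arrays matched, measured by 167 probe sets. The 83 comprised 15 integrin alpha and 7 integrin beta subunits, 8 laminin chains, 8 basement membrane and network collagens, 4 fibrillar and 13 other collagens, 17 ADAM genes, 4 ADAMTS or ADAMTS-like genes and 4 TIMPs. Another 3 matched by name but are not integrin subunits (ITGB1BP1, ITGB3BP and ITGBL1). Each gene was read from its brightest probe set over all arrays, and 39 of the 83 had several.

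Total RNA came from the lines SNB19 and SF539, both given as GBM (glioblastoma) cell lines. Each line received scramble siRNA, PARK2 siRNA#1 or PARK2 siRNA#2 (siRNA1 and siRNA2 here) with Lipofectamine RNAiMAX, and was harvested after 48 h. Every one of the 6 groups had 2 Affymetrix U133A 2.0 arrays, 12 in all. SNB19 was grown in DMEM and SF539 in MEM, so line and medium cannot be told apart, and the scramble groups went through the same transfection as the others. PARK2 encodes parkin, a ubiquitin ligase best known for marking damaged mitochondria, and its own level was not analysed here. The labels do not say whether the duplicates were separate cultures, and p-values cover no more than the spread among these arrays, technical or not.

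Integrins are pairs of an alpha and a beta chain that span the cell membrane, holding matrix proteins outside and linking to the actin skeleton inside. Laminins, trimers of an alpha, a beta and a gamma chain, and type IV collagens form the sheets called basement membranes, while fibrillar collagens form cables. ADAM proteases cut other membrane proteins free of the cell surface, ADAMTS proteases act on matrix proteins such as procollagens, and TIMPs inhibit metalloproteinases. In glioma, integrins and matrix are known for their part in the spread of tumour cells along vessels and fibre tracts.

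All values are log2 intensities, and the arrays' medians lay between 5.94 and 6.14 and their lower quartiles between 3.93 and 4.02. A difference of 1 is a doubling of intensity. Probe sets differ in brightness, so levels were compared between groups and not between genes. Of the 83 genes, 32 stayed below the lowest array median in every group, and 14 below the highest lower quartile, where the arrays have little signal over background. The defining glial markers GFAP, S100B and FABP7 were at 6.72 or above on every SNB19 array and at 4.10 or below on every SF539 array, while OLIG2 and AQP4 were at 3.76 or below throughout. Markers of leukocytes and endothelium had mean levels between 3.98 and 4.50 on all arrays. In SNB19 the summed level of the 9 measured glial markers was 77.8 to 78.7 with scramble and 84.1 to 85.0 with the PARK2 siRNAs, which includes a rise of GFAP by 3.58 and a fall of SOX2 by 0.41. The 10 fibroblast and mural markers summed there to 59.1 and 59.2 with scramble, 60.3 and 60.5 with siRNA1, and 64.1 and 64.8 with siRNA2. The 7 epithelial markers, all measured, summed to 36.3 to 38.2 in SNB19, lowest with siRNA2, and to 32.7 to 34.2 in SF539. With both siRNAs averaged in SNB19, KRT19 rose by 1.26 while CLDN4 fell by 1.42 and KRT18 by 0.59. A sum can thus stay level while single markers move in opposite directions. The part of these shifts in the results for the matrix genes was not tested.

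The 2 arrays of SF539 with siRNA2 stood apart from each other, with a correlation of 0.991 over all probe sets against 0.995 to 0.998 in the other groups. The 2 arrays differed by over 0.5 for 24 of the 83 genes there, against 1 to 4 in the other groups. For 11 genes the gap was over 1, always with replicate 2 higher, and they include subunits of basement membrane (COL4A1, COL4A2, LAMA4) and of integrins (ITGB3, ITGA1, ITGA10, ITGB8). Such gaps were not counted over all genes, but the pair was further apart there too. The median standard deviation between the 2 arrays was 0.132 over all genes, against 0.0616 to 0.0852 in the other groups. Over the 83 genes it was 0.19, against 0.0642 to 0.0929. The 10 markers of fibroblasts and mural cells were all measured. Their summed level was 62.4 to 63.6 on the other SF539 arrays, 67.4 on siRNA2 replicate 1 and 78.6 on replicate 2. With siRNA2 against scramble there, TAGLN (2.56), PDGFRB (2.43), LUM (1.93), DCN (1.68), PDGFRA (1.61) and FAP (0.52) were higher. ACTA2 (0.12) and RGS5 (-0.05) changed little, and CSPG4 (-0.23) and THY1 (-0.49) were lower. The changes of TAGLN, FAP and CSPG4 did not pass the test (limma adjusted p = 0.16, 0.233 and 0.487). Within that list TAGLN was at 4.08 on replicate 1 and 8.98 on replicate 2, and DCN at 6.26 and 8.01. Whether those markers have a part in the results for SF539 was not tested. Counts and called genes of the comparison of both siRNAs with scramble in SF539 are given with and without each of these arrays. In bulk RNA, fewer cells of a type and less RNA per cell cannot be told apart.

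**Figure D1:**
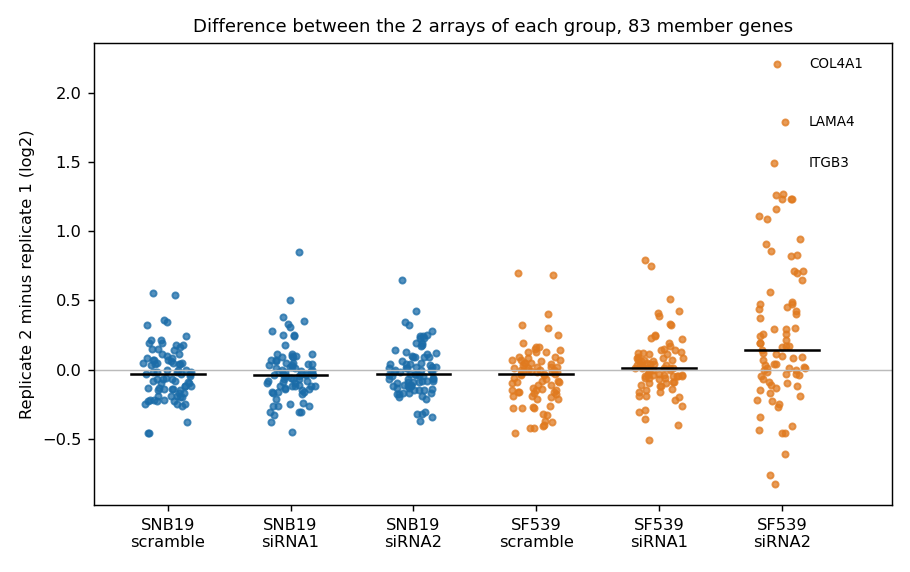
Each point is a gene of the 83, placed by its log2 level on replicate 2 minus that on replicate 1, for the 6 groups; black bars are medians. COL4A1 (2.21), LAMA4 (1.79) and ITGB3 (1.49) lead the upper tail in SF539 with siRNA2, and no other group has a gap over 1.

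The lines differed before any PARK2 siRNA, and 49 of the 83 genes did so with scramble siRNA, 24 higher and 25 lower in SF539; over all genes 49.3% were called, 24.6% higher and 24.7% lower (limma, Benjamini-Hochberg adjusted p under 0.05). The median difference was -0.04 over the 83 genes and 0.04 over all genes. SF539 had more of the type VI collagen chain COL6A3, a part of beaded microfibrils, and of the inhibitor TIMP3. SNB19 had more of COL11A1, a fibrillar chain that sets fibril diameter, of COL21A1, COL14A1 and COL9A3, which sit on fibril surfaces, and of the basement membrane chain COL4A5. With each array centred on its median the split became 26 higher and 20 lower, and calls over all genes went from 49.9% to 66.0% higher.

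COL6A3 was at 3.85 and 3.83 on the SNB19 scramble arrays and at 12.62 and 12.69 on those of SF539. SNB19 was thus at background and SF539 near the top of the scale, a difference of 8.81 ± 0.22 (SE; limma adjusted p = 8.56e-10) whose size is bounded by the background. COL6A1 and COL6A2, its partners in the trimer, were not separated in this way: COL6A2 was higher in SF539 by 1.09, and COL6A1 was not called. TIMP3, which binds to the matrix and blocks ADAM and ADAMTS proteases as well as MMPs, was at 7.0 and 6.85 in SNB19 and at 10.13 and 9.93 in SF539. The difference was 3.10 ± 0.20 (limma adjusted p = 7.41e-07). TIMP1 was also higher in SF539, by 0.83, whereas TIMP4 (-2.22) and TIMP2 (-1.01) were lower. Of 4 TIMPs all 4 thus differed, 2 in each direction.

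COL11A1 stood at 10.70 and 10.68 in SNB19 and at 4.02 and 4.72 in SF539, a difference of -6.31 ± 0.27. COL21A1 differed by -5.94, COL4A5 by -5.25, COL14A1 by -5.07 and COL9A3 by -4.18, and all 5 were at 4.72 or below on the SF539 scramble arrays. Among 25 collagens 5 were higher and 10 lower in SF539, with COL15A1 (2.13) and COL7A1 (2.03), the anchoring fibril collagen, on the higher side and COL18A1 (-3.21), the source of endostatin, on the lower. Laminin chains were mostly lower in SF539, 5 of 8 against 1 higher: LAMB2 (-1.46), LAMA4 (-1.35), LAMA5 (-1.09), LAMB3 (-0.77) and LAMA2 (-0.37) were lower and LAMB1 (1.00) was higher. The calls of LAMA4 and LAMA2 were lost without any of the 4 scramble arrays, with adjusted p from 0.0639 to 0.0943 and from 0.0569 to 0.124 in limma.

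Of 22 integrin subunits 8 were higher and 5 lower in SF539. ITGB8, which with ITGAV activates latent TGF-beta, differed by -3.87 and ITGB4, the beta chain of hemidesmosomes, by -3.56. ITGB2, best known from leukocytes, was higher by 2.12 and the fibronectin receptor chain ITGA5 by 1.48. ITGB1, the partner of most alpha chains, was higher by 0.79 and ITGA7, a laminin receptor chain, differed by -1.24. ITGB4 is the pair of ITGA6, which was not called. The ADAM group was split 3 to 3 among 17, from ADAM19 at -2.88, a sheddase of neuregulins, to ADAM21 at 0.48. The 3 higher ones, ADAM21, ADAM20 and ADAM11, lay below the lowest array median in every group. The 3 lower ones, ADAM19, ADAM23 and ADAM10, were at 9.19, 6.86 and 11.38 in SNB19 with scramble. ADAMTS2, a procollagen N-proteinase, was higher by 2.22 and the related ADAMTS3 by 0.68. Of the calls between the lines 34 of 49 held in every fit that left out 1 array. Of the 49, 12 were of genes below the lowest array median in every group. All 3 genes matched by name only were higher in SF539, ITGBL1 by 2.55 and ITGB3BP by 0.89; ITGB1BP1 differed by 0.98 on its brightest probe set but by -0.77 on the mean of its probe sets.

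**Figure D2:**
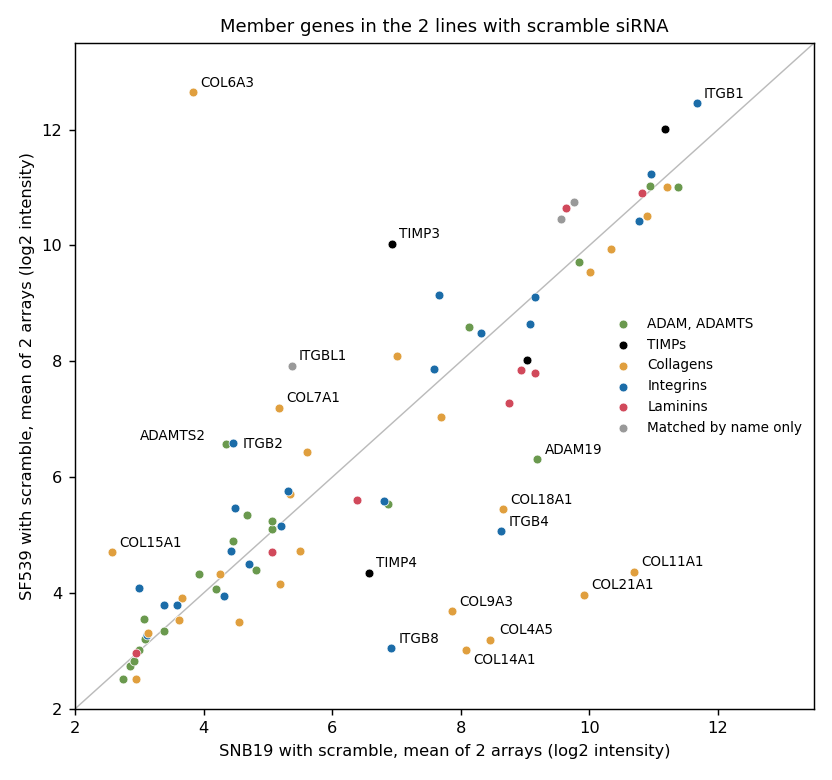
Mean log2 intensity of each gene on the 2 scramble arrays of SNB19 (x axis) and of SF539 (y axis), coloured by family; the line marks equal levels. COL6A3 lies far above the line (3.84 against 12.65), and COL11A1, COL21A1, COL4A5, COL14A1 and COL9A3 far below it.

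In SNB19 the PARK2 siRNAs were followed by higher integrins ITGB3, ITGAV, ITGB4 and ITGB1, higher collagens COL14A1, COL6A3, COL5A1 and COL11A1 and higher sheddases ADAM12 and ADAM9. Collagen COL13A1 fell most, and the alpha chains ITGA5, ITGA2 and ITGA3 fell with it. With both siRNAs averaged and set against scramble, 28 of the 83 genes changed, 19 up and 9 down, which is 33.7%, against 32.8% of all genes, 15.5% up and 17.4% down. The median change was 0.02 over the 83 genes and -0.01 over all. The share of genes called in the group was thus near that of all genes. With each array centred on its median the split was 21 up and 6 down, while the share of higher calls over all genes moved from 47.1% to 68.3% and the median of all genes from -0.01 to 0.12.

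Among the integrins of SNB19, 2 alpha chains (ITGAV and ITGA9) rose and 3 fell, and 3 beta chains rose and 1 fell. ITGA9 changed by 0.74 with siRNA1 and by -0.10 with siRNA2, and the mean of 0.32 (limma adjusted p = 0.0118) was not called in every fit without 1 array. ITGB3 was at 5.34 and 5.27 with scramble, at 6.71 and 6.67 with siRNA1 and at 7.90 and 7.80 with siRNA2. The 3 groups did not overlap, and siRNA2 was highest. The mean change was 1.96 ± 0.30 (3.90-fold; limma adjusted p = 0.000787), and of the other 6 probe sets of ITGB3, changes ran from 0.17 to 1.42. ITGAV, the alpha chain that pairs with ITGB3 in the vitronectin receptor, was at 10.75 and 10.79 with scramble, at 12.11 and 12.09 with siRNA1 and at 12.22 and 12.19 with siRNA2. Both siRNA groups lay above scramble, by 1.38 ± 0.17 (2.61-fold; limma adjusted p = 0.000232). ITGAV also pairs with ITGB1, which rose by 0.67, and with ITGB5 (-0.20) and ITGB8 (0.03), neither of which was called.

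ITGA5, which pairs with ITGB1 as the main fibronectin receptor, was at 7.75 and 7.58 with scramble, 6.49 and 6.46 with siRNA1, and 6.65 and 6.89 with siRNA2. Every siRNA array lay below every scramble array, and ITGA5 fell by 1.04 ± 0.19 (limma adjusted p = 0.00208) while its partner ITGB1 rose. ITGB1 has 4 dim further probe sets, with changes from -0.04 to 0.11. ITGA2, a collagen receptor chain that pairs with ITGB1, was at 8.45 and 8.20 with scramble, 7.90 and 7.64 with siRNA1 and 7.19 and 7.32 with siRNA2. It fell by 0.81 ± 0.13 with no overlap between siRNA and scramble arrays. ITGA3, a laminin receptor chain, fell by 0.50 (limma adjusted p = 0.0178), a call lost without any of 3 SNB19 arrays (scramble replicate 1, siRNA1 replicate 2 or siRNA2 replicate 1; adjusted p 0.0555 to 0.168). ITGB4 rose by 0.87 and its partner ITGA6 (-0.19) was not called. ITGB2 was at 4.50 and 4.43 with scramble, 3.67 and 3.72 with siRNA1 and 4.15 and 4.20 with siRNA2, a fall by 0.53 ± 0.08 at a level close to the lower quartile.

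The collagens of SNB19 held the largest fall and several of the larger rises. COL13A1, a collagen that spans the cell membrane, was at 7.74 and 7.64 with scramble, 5.50 and 5.60 with siRNA1 and 5.37 and 5.19 with siRNA2. Scramble was higher than every siRNA array by over 2 log2 units, and COL13A1 fell by 2.27 ± 0.18 (4.84-fold; limma adjusted p = 1.15e-05). The changes of its 2 other probe sets were -0.44 and -0.76. COL14A1, which coats collagen fibrils, was at 7.81 and 8.36 with scramble, 9.98 and 10.01 with siRNA1 and 9.47 and 9.70 with siRNA2. It rose by 1.71 ± 0.20 (limma adjusted p = 0.000143), without overlap. COL21A1, of the same class, was at 9.92 and 9.89 with scramble, 9.66 and 9.40 with siRNA1 and 8.57 and 8.49 with siRNA2, and fell by 0.88 ± 0.14. The 2 siRNAs differed here, siRNA2 giving the deeper fall.

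COL6A3, at background in SNB19 with scramble (3.85 and 3.83), was at 4.24 and 5.09 with siRNA1 and at 5.73 and 5.75 with siRNA2. It rose by 1.36 ± 0.19 (limma adjusted p = 0.000388), and all 4 siRNA arrays still lay below the array medians. Its partners COL6A1 (0.06) and COL6A2 (0.33) were not called. All but 1 of the 4 fibrillar collagens rose: COL5A1 by 0.88, COL11A1 by 0.79 and COL2A1, the cartilage collagen, by 0.47. COL2A1 lay near the lower quartile, at means of 3.61 with scramble, 4.17 with siRNA1 and 4.0 with siRNA2. The calls of COL5A1 and COL11A1 were lost without either scramble array (limma adjusted p 0.0805 to 0.107 and, over 6 arrays, 0.0564 to 0.124), and that of COL2A1 without scramble replicate 2 (0.133). COL18A1 rose by 0.53, a call lost without scramble replicate 2 (0.134). Of 8 basement membrane and network collagens COL4A5 alone was called, rising by 0.61. Of 8 laminin chains LAMB1 rose by 0.62 and LAMB3 by 0.56; LAMC1 (0.05), the gamma chain that completes most LAMB1 trimers, was not called.

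Of the 17 ADAM genes in SNB19, 4 rose and 2 fell. ADAM9, an active sheddase, was at 10.90 and 10.98 with scramble, 11.96 and 12 with siRNA1 and 11.95 and 11.96 with siRNA2. All 4 siRNA arrays lay above scramble, between 11.95 and 12, and ADAM9 rose by 1.03 ± 0.09 (2.05-fold; limma adjusted p = 1.63e-05). ADAM12, a sheddase also known from myoblast fusion, was at 8.17 and 8.10 with scramble, 9.08 and 9.14 with siRNA1 and 9.40 and 9.43 with siRNA2. It rose by 1.13 ± 0.25 (limma adjusted p = 0.00701), but the call was lost without scramble replicate 2 (0.0539), and its 2 dimmest probe sets gave 0.09 and -0.11. ADAM23, an adhesion protein without protease activity, was at 6.93 and 6.79 with scramble, 6.25 and 5.94 with siRNA1 and 6.49 and 6.30 with siRNA2. It fell by 0.62 ± 0.10, without overlap. The best known sheddases changed little: ADAM17, which frees TNF, rose by 0.26 and ADAM10, which cuts Notch and N-cadherin, fell by 0.22. Both calls were lost in some fits without 1 array (limma adjusted p 0.0556 to 0.221 and 0.0555 to 0.171), as was that of ADAM20 (0.36; 0.051 to 0.142). Of the 4 ADAMTS genes 0 were called by limma, with 1 at an unadjusted p under 0.05. Of the TIMPs TIMP1 fell by 0.42, a call lost without any 1 of the 6 SNB19 arrays (0.0578 to 0.206).

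In all, 16 of the 28 calls in SNB19 held in every fit that left out 1 array: ADAM9, ADAM23, COL4A5, COL6A3, COL13A1, COL14A1, COL21A1, ITGA2, ITGA5, ITGAV, ITGB1, ITGB2, ITGB3, ITGB4, LAMB1 and LAMB3. The count was 17 without scramble replicate 2.

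**Figure D3:**
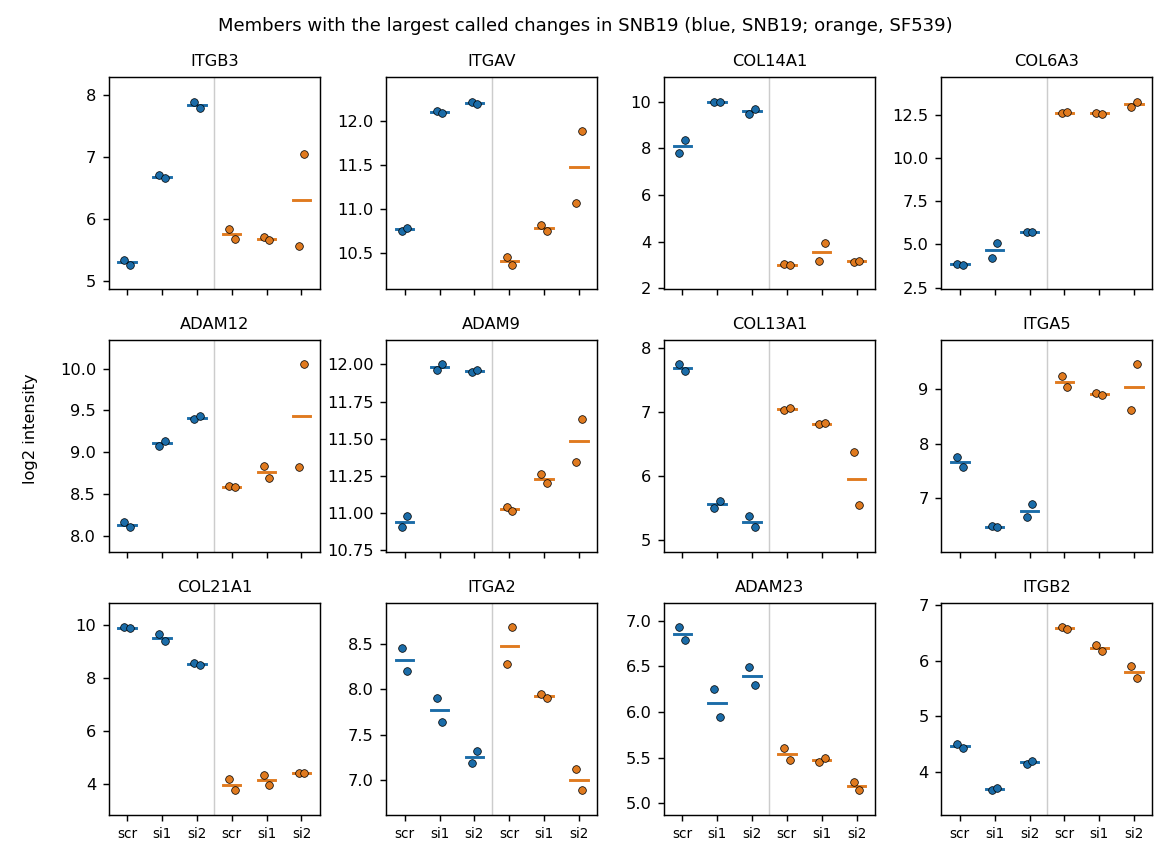
Log2 intensity of the 6 called genes with the largest rises and the 6 called genes with the largest falls in SNB19, on every array: scramble (scr), siRNA1 (si1) and siRNA2 (si2), with SNB19 in blue and SF539 in orange; bars are group means and each panel has its own axis. In SNB19 the siRNA points lie on one side of the scramble points in all 12 panels. The genes were picked for large called changes of the same sign with both siRNAs, so this separation largely follows from the choice.

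Genes that work beside these proteins were taken from 5 lists, also chosen with earlier results known. Over all genes of SNB19 32.8% were called, 15.5% up and 17.4% down, and rises made up 47.1% of those calls, or 68.3% after median centring. The shares called were 37.5% for the integrin adhesome, 31.8% for ligands and partners, 50% for basement membrane and other receptors, 44.4% for collagen modification and 43.5% for ADAM regulators and substrates. Of 16 measured genes of the integrin adhesome, the proteins at the inner face, 5 rose and 1 fell in SNB19: PARVA (1.70) and FERMT2 (0.79), both of which link integrins to actin, rose, while the kinase PTK2 (-0.51) fell. Of 22 ligands and partners 4 rose and 3 fell, with FBN1 (1.23) and TNC (0.88) up and the integrin-associated CD47 (-0.81) and SPP1 (-0.50) down; the mean of the TNC probe sets gave -0.05. Of 14 basement membrane components and other matrix receptors 2 rose and 5 fell, NID1 (0.53) among the former and the syndecan SDC2 (-1.18) and SGCB (-0.65) among the latter. Of 18 collagen modification genes 3 rose and 5 fell. The hydroxylases P4HA2 (-1.01) and PLOD1 (-0.96) fell, and BMP1 (0.77), the procollagen C-proteinase, and KDELR3 (0.67) rose. Of 23 regulators and substrates of ADAM proteases 7 fell and 3 rose: the shed growth factors TGFA (-1.91) and BTC (-1.43) fell, and JAG1 (0.77) and CDH2 (0.46), substrates of ADAM10, rose. The calls of FERMT2, FBN1, NID1, BMP1, KDELR3, JAG1 and CDH2 were each lost in some fit without 1 array, with limma adjusted p between 0.0505 and 0.151.

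In SF539 the PARK2 siRNAs were followed by more of the inhibitor TIMP3, of the procollagen N-proteinases ADAMTS2 and ADAMTS3, and of collagens COL16A1, COL18A1, COL5A1 and COL15A1. The collagen receptor chain ITGA2 fell, as did COL13A1, LAMA5 and ITGB2. With both siRNAs averaged, 18 of the 83 genes changed, 14 up and 4 down, in the fit that takes the spread from all 12 arrays. The arrays of SF539 fitted alone called 4 (TIMP3, ADAMTS3, COL18A1 and ITGA2), with 1.93% of all genes called. Over all genes 9.82% were called, 5.8% up and 4.01% down. The median change was 0.08 over the 83 genes and -0.02 over all genes. Without siRNA2 replicate 1 the counts were 30 up and 10 down, with 23.1% of all genes called, and without replicate 2 they were 17 up and 7 down, with 16.1%. Median centring gave 12 up and 7 down, and moved the share of higher calls over all genes from 59.1% to 46.0%. All 18 genes kept their sign without siRNA2 replicate 1 and without replicate 2. Each of these fits drops the gap between the 2 siRNA2 arrays from the estimated spread. Calls in them therefore cannot show whether a call withstands that gap. Their changes without replicate 1 and without replicate 2 were 1.48 and 1.03 for ADAMTS2, 1.14 and 0.93 for COL18A1, 1.05 and 1.07 for ADAMTS3, and -1.07 and -0.96 for ITGA2. They were 1.45 and 0.81 for COL16A1, 1.23 and 0.66 for COL5A1, 1.21 and 0.66 for ITGA10, 0.92 and 0.51 for ITGAV, 0.84 and 0.51 for LAMB2, and -0.87 and -0.45 for COL13A1. The changes were 0.84 and 0.61 for COL15A1, 0.44 and 0.50 for LAMB3, 0.41 and 0.46 for ITGA4, 0.32 and 0.41 for ITGBL1, 0.41 and 0.26 for ADAM9, -0.72 and -0.52 for LAMA5, and -0.63 and -0.52 for ITGB2.

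TIMP3 in SF539 was at 10.13 and 9.93 with scramble, 10.76 and 10.83 with siRNA1 and 12.07 and 12.78 with siRNA2. The 3 groups did not overlap, and TIMP3 rose by 1.58 ± 0.17 (3.0-fold; limma adjusted p = 0.000583). Its 3 other probe sets rose too, by 1.6 to 2.32. The rise was 1.41 without siRNA2 replicate 2 and 1.76 without replicate 1. ADAMTS2, which trims the N-terminal propeptides of fibrillar procollagens, was at 6.76 and 6.38 with scramble, 7.17 and 7.40 with siRNA1 and 7.91 and 8.82 with siRNA2. It rose by 1.25 ± 0.26 (limma adjusted p = 0.0169), a call lost without scramble replicate 1, scramble replicate 2 or siRNA1 replicate 2 (0.054 to 0.12). ADAMTS3, another procollagen N-proteinase that also activates VEGFC, was at 5.19 and 5.51 with scramble, 6.19 and 6.10 with siRNA1 and 6.69 and 6.65 with siRNA2. It rose by 1.06 ± 0.12 (limma adjusted p = 0.000645), with the siRNA2 arrays close together.

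COL16A1, a small collagen linked to fibrils, was at 6.39 and 6.48 with scramble, 7.14 and 7.18 with siRNA1 and 7.33 and 8.60 with siRNA2. It rose by 1.13 ± 0.27 (limma adjusted p = 0.0287), by 0.81 without siRNA2 replicate 2, and the call was lost without any 1 of the scramble or siRNA1 arrays of SF539 (0.0699 to 0.157). COL18A1 was at 5.64 and 5.27 with scramble, 6.30 and 6.33 with siRNA1 and 6.45 and 6.87 with siRNA2. All siRNA arrays lay above scramble, by 1.03 ± 0.14 (limma adjusted p = 0.00193). COL5A1, the fibrillar chain that starts type I collagen fibrils, was at 9.54 and 9.54 with scramble, 10.03 and 10.11 with siRNA1 and 10.33 and 11.49 with siRNA2. It rose by 0.95 ± 0.24 (limma adjusted p = 0.0356), 0.66 without siRNA2 replicate 2. COL15A1, close kin of COL18A1, rose by 0.73 (lost without scramble replicate 2, 0.0589). The 8 basement membrane and network collagens had no call by limma in SF539, and 0 at an unadjusted p under 0.05.

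The falls in SF539 were led by ITGA2, at 8.28 and 8.68 with scramble, 7.95 and 7.90 with siRNA1 and 7.12 and 6.89 with siRNA2. The groups did not overlap, and ITGA2 fell by 1.01 ± 0.13 (2.02-fold; limma adjusted p = 0.00178). ITGB2 was at 6.6 and 6.57 with scramble, 6.29 and 6.17 with siRNA1 and 5.91 and 5.69 with siRNA2, and fell by 0.57 ± 0.08. LAMA5, an alpha chain of vessel basement membranes, was at 7.99 and 7.72 with scramble, 7.49 and 7.64 with siRNA1 and 7.11 and 6.70 with siRNA2. It fell by 0.62 (limma adjusted p = 0.0168), a call lost without scramble replicate 1 or siRNA1 replicate 1 (0.053 to 0.146), whereas the beta chains LAMB2 (0.67) and LAMB3 (0.47) rose. COL13A1 was at 7.02 and 7.06 with scramble, 6.81 and 6.82 with siRNA1 and 6.37 and 5.54 with siRNA2, and fell by 0.66 (limma adjusted p = 0.049). Its siRNA1 arrays lay just under scramble.

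Integrin alpha chains in SF539 rose for ITGA10, a collagen receptor chain (0.94), ITGAV (0.71) and ITGA4, a receptor chain for VCAM1 and fibronectin (0.44). Their partner ITGB1 (0.15) and the ITGAV partners ITGB3 (0.24), ITGB5 (0.26) and ITGB8 (0.66) were not called. ADAM9 (0.33) was the single ADAM gene called of 17, and ITGBL1 rose by 0.36. Calls of COL5A1, COL13A1, ADAM9, ITGA10 and ITGAV were lost in 10 of the 12 fits without 1 array (limma adjusted p from 0.0541 to 0.207), the exceptions being the fits without either siRNA2 array of SF539. LAMB2 lost its call in 4 such fits, LAMB3 in 1 and ITGBL1 in 6. TIMP3, ADAMTS3, COL18A1, ITGA2, ITGA4 and ITGB2, 6 of the 18, were called in every one. The count was 7 without scramble replicate 2, 9 without scramble replicate 1 and 10 without either siRNA1 array.

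**Figure D4:**
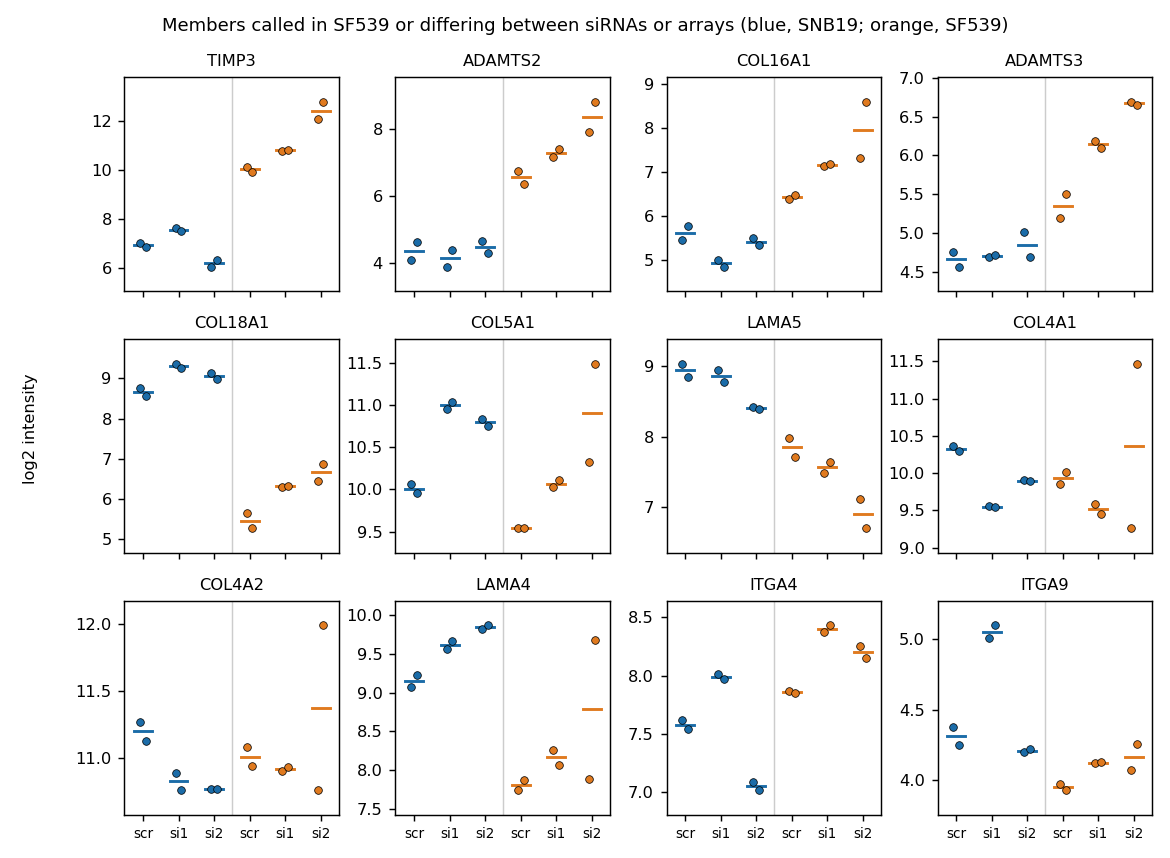
Log2 intensity on every array of 12 genes called in SF539 or differing between siRNAs or between arrays, drawn as in the plot of SNB19 genes (scr, scramble; si1, siRNA1; si2, siRNA2; SNB19 blue, SF539 orange; bars are group means). TIMP3, ADAMTS3 and COL18A1 lie above scramble in SF539 on all siRNA arrays, and the siRNA2 points of COL4A1, COL4A2 and LAMA4 in SF539 lie far apart.

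The neighbouring genes of SF539 stood against 9.82% of all genes called there, 5.8% up and 4.01% down. Of 18 collagen modification genes 3 rose and 15 did not pass the test, and 10 rose without siRNA2 replicate 1 and 4 without replicate 2; PCOLCE (1.34), which enhances procollagen C-proteinase, and KDELR3 (1.12) were among the 3. Of 14 basement membrane components and other receptors 3 rose and 1 fell: NID2 (1.64), a linker of laminin and collagen IV, and SDC2 (1.20) rose, and CD44 (-0.31) fell. Of 22 ligands and partners FBLN1 (0.72) and FBN2 (0.57) rose and CD9 (-0.26) and CD47 (-0.29) fell. Of 16 adhesome genes PTK2 (0.29) rose and PXN (-0.41) fell, and of 23 ADAM regulators and substrates L1CAM (1.5) rose and HBEGF (-0.69) and MET (-0.29) fell. FBLN1 (-0.18), PTK2 (-0.09) and MET (0.20) had another probe set with the opposite sign. Among the fibroblast and mural markers PDGFRB (1.49) and LUM (0.98) rose and THY1 (-0.69) fell. Without siRNA2 replicate 1, when 23.1% of all genes were called, 6 basement membrane components and receptors rose and 1 fell, 12 ligands and partners rose and 2 fell, 7 adhesome genes rose and 1 fell, and 3 ADAM regulators and substrates rose and 4 fell. Without replicate 2, when 16.1% were called, these counts were 4 and 1, 4 and 3, 1 and 1, and 2 and 3. Calls of NID2, CD44, FBN2, CD9, CD47, PTK2, PXN, PCOLCE, HBEGF and MET were lost in some fit without 1 array (limma adjusted p from 0.0519 to 0.234).

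Across the lines, 8 genes changed in both and each had the same sign in both: ITGAV, COL5A1, COL18A1, LAMB3 and ADAM9 rose, and ITGA2, COL13A1 and ITGB2 fell. They are 28.6% of the calls in SNB19 and 44.4% of those in SF539. Over all genes 477 were called in both lines, 17.0% of the calls in SNB19 and 56.9% of those in SF539, and 78.2% of the 477 had the same sign. The SF539 calls of ITGAV, COL5A1, ADAM9 and COL13A1 were each lost in 10 of the 12 fits without 1 array. Called in neither line were 45 genes. The sequence before the transcription start is shown for ITGAV, COL5A1, ITGA2 and COL13A1, an integrin and a collagen in each direction, and for TIMP3, which rose most in SF539. Each run is the 250 bases before the start on the gene's strand, from the RefSeq table of assembly GRCh38.p14: ITGAV at chr2:186589806-186590055 (plus strand), COL5A1 at chr9:134641553-134641802 (plus), ITGA2 at chr5:52989102-52989351 (plus), COL13A1 at chr10:69801656-69801905 (plus) and TIMP3 at chr22:32801455-32801704 (plus). ITGAV and COL5A1 have 2 annotated starts and the upstream-most is shown. Capitals mark matches on either strand to 4 motifs: the GC box GGGCGG, the CCAAT box CCAAT, the TATA box TATAAA and the AP-1 motif TGANTCA.
ITGAV: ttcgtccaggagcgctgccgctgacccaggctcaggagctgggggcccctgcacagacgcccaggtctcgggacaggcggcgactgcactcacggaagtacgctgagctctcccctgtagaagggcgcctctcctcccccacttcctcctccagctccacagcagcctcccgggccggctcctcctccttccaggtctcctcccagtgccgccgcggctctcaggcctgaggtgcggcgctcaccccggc
COL5A1: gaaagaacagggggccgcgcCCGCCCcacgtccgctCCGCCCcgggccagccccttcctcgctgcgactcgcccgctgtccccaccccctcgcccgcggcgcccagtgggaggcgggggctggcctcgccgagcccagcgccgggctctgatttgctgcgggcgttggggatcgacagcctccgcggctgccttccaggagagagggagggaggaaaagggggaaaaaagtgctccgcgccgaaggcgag
ITGA2: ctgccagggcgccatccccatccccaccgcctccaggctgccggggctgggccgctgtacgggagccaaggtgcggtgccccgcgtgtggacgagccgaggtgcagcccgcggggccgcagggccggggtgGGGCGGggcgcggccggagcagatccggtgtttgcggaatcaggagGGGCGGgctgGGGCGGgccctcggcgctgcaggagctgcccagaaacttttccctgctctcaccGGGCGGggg
COL13A1: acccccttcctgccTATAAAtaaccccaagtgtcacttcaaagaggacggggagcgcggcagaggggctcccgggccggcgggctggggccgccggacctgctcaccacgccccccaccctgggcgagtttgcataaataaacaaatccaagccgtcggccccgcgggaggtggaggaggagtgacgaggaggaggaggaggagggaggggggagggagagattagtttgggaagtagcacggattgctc
TIMP3: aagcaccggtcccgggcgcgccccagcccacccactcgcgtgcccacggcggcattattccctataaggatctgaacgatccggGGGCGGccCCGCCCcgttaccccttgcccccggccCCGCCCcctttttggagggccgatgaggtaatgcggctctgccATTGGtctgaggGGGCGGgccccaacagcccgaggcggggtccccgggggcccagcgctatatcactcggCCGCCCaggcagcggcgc

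ITGAV held none of the 4 motifs in this window, COL5A1 held 2 GC boxes, ITGA2 held 4, COL13A1 held 1 TATA box, and TIMP3 held 5 GC boxes and 1 CCAAT box. A GC box was held by 42.6% of the 35116 such windows given by RefSeq, with 32.0% for a CCAAT box, 10.7% for a TATA box and 6.57% for an AP-1 motif. Of the 83 genes 61 matched the table, with 79 windows, of which 48 held a GC box, 21 a CCAAT box, 9 a TATA box and 2 an AP-1 motif. These matches describe letters and no site of binding.

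The response itself differed between the lines for 20 of the 83 genes, against 19.1% of all genes (limma, SF539 change minus SNB19 change, adjusted p under 0.05). There were 10 in each direction, against 10.8% of all genes higher and 8.3% lower in SF539. TIMP3 differed by 1.63 ± 0.24, with a change of -0.04 in SNB19 and 1.58 in SF539. COL13A1 differed by 1.61 ± 0.26, its fall being deeper in SNB19. COL16A1 (1.57), ADAMTS2 (1.29), COL21A1 (1.21) and ADAMTS3 (0.95) also had the higher change in SF539. In the other direction stood ITGB3 (-1.72), COL11A1 (-1.6), COL14A1 (-1.37), COL6A3 (-1.13), LAMB1 (-0.81) and ADAM9 (-0.70). COL11A1 changed by 0.79 in SNB19 and by -0.82 in SF539, where it lay near background and was not called. The differences of ADAM9, ADAMTS3, COL11A1, COL13A1, COL14A1, COL21A1, ITGA4, LAMB1 and TIMP3 held in every fit without 1 array. The count of calls was lower without any single array other than the SF539 siRNA2 pair, and higher without either array of that pair. Those fits drop the gap of the pair from the estimated spread, so their higher counts are no result about the 83 genes. Calls of COL16A1, ADAMTS2, ITGB3 and COL6A3 were lost in 3 to 8 of the 12 fits (limma adjusted p 0.0503 to 0.152). Median centring moved the split from 10 and 10 to 6 higher and 17 lower in SF539.

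**Figure D5:**
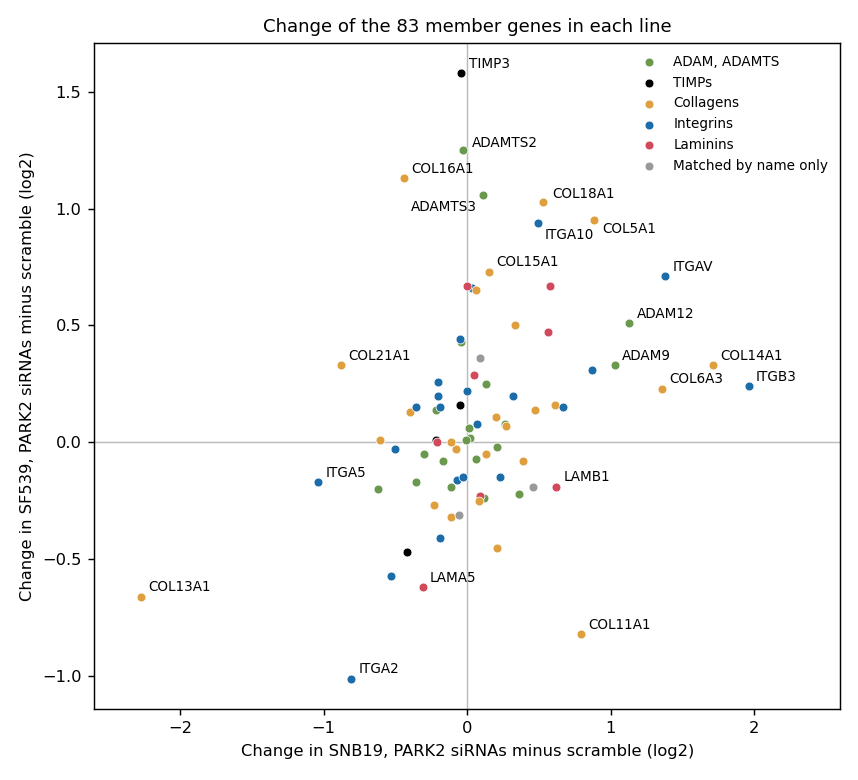
Log2 change with the PARK2 siRNAs against scramble in SNB19 (x axis) and SF539 (y axis) for the 83 genes, coloured by family. ITGB3, COL14A1 and COL6A3 lie far right near the horizontal axis, TIMP3, ADAMTS2 and ADAMTS3 high near the vertical axis, and COL13A1 and ITGA2 at lower left.

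The 2 siRNAs against PARK2 share their scramble arrays within a line, so their values stand side by side here. In SNB19 siRNA1 changed 29 of the 83 genes, 23 up and 6 down (26.1% of all genes called, 12.4% up and 13.7% down), and siRNA2 changed 25, 14 up and 11 down (29.7% of all genes, 13.9% up and 15.8% down). Under median centring siRNA2 gave 21 up and 6 down. In SF539 siRNA1 changed 3 genes, ITGA4 (0.54), ADAMTS3 (0.80) and COL18A1 (0.86), all up, against 2.73% of all genes called, 1.61% up and 1.11% down. There siRNA2 changed 22, 17 up and 5 down, against 15.2% of all genes, 8.66% up and 6.5% down. Both SF539 counts were higher without siRNA2 replicate 1 and without its replicate 2, fits that drop the gap of that pair from the estimated spread. The share of all genes called with siRNA2 rose too without replicate 1, and was slightly lower without replicate 2. Without either siRNA1 array the siRNA1 count was 0, without scramble replicate 1 or 2 it was 1 or 2, and without either scramble array the siRNA2 count was 14. In SNB19 the siRNA1 count was 17 without scramble replicate 2, 19 without scramble replicate 1 and 19 without siRNA1 replicate 1, and siRNA2 called 15 genes when scramble replicate 1 or siRNA2 replicate 2 was left out.

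The siRNAs were also compared directly. The difference of their means uses no scramble array, but its test takes the spread from all arrays, scramble included. In SNB19, 9 of the 83 genes differed between the siRNAs, 3 higher and 6 lower with siRNA2. Over all genes 6.06% differed, 3.08% higher and 2.98% lower. TIMP3 was at 7.0 and 6.85 with scramble, 7.63 and 7.51 with siRNA1 and 6.06 and 6.31 with siRNA2, above scramble with one siRNA (0.65) and below it with the other (-0.74). The difference of siRNA2 from siRNA1 was -1.38 ± 0.20 (limma adjusted p = 0.00344). ITGA4 split in the same way, at 7.62 and 7.54 with scramble, 8.01 and 7.97 with siRNA1 and 7.09 and 7.02 with siRNA2, a difference of -0.93 ± 0.08 (limma adjusted p = 0.00018). ITGA9, a tenascin receptor chain, was at 5.01 and 5.10 with siRNA1 and between 4.20 and 4.38 on the other SNB19 arrays. COL4A4 (-1.02), COL21A1 (-1.0), COL9A3 (-0.90) and ITGA9 (-0.84) were lower and ITGB2 (0.48), ITGBL1 (0.57) and COL6A3 (1.07) higher with siRNA2. COL4A4, ITGA4, ITGA9 and TIMP3 held in every fit without 1 array, the other 5 did not (limma adjusted p up to 0.144), and the count was 4 without siRNA1 replicate 1, 4 without siRNA2 replicate 2, 5 without siRNA2 replicate 1 of SNB19, and 20 without either siRNA2 array of SF539.

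In SF539, 5 genes differed between the siRNAs, 2 higher and 3 lower with siRNA2, against 2.72% of all genes, 1.84% higher and 0.878% lower. TIMP3 (1.63) and ITGB8 (1.18) were higher with siRNA2, and ITGA2 (-0.92), LAMA5 (-0.67) and ITGB2 (-0.43) were lower. TIMP3 thus moved with siRNA2 in opposite directions in the lines. None of the 5 calls held in every fit without 1 array. TIMP3 lost its call without siRNA1 replicate 1, with a difference of 1.59. The count was higher only without siRNA2 replicate 1, where calls over all genes rose strongly too. It was lower without any other single array. Leaving out 1 siRNA2 array drops the gap between the 2 from the estimated spread.

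Type IV collagen chains are encoded head to head in pairs, and the arrays measured all 6. COL4A1 and COL4A2 start 127 bases apart, COL4A6 and COL4A5 380 and COL4A4 and COL4A3 419. The 126 bases between COL4A1 (minus strand) and COL4A2 (plus strand), at chr13:110307158-110307283 in GRCh38.p14, are printed because both genes moved together on the array that stood apart; they hold 1 CCAAT box and 1 GC box, in capitals.
COL4A1-COL4A2: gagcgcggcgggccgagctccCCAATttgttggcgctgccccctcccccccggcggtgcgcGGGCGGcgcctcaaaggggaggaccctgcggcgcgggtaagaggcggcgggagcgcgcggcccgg

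COL4A1 was at 10.36 and 10.30 in SNB19 with scramble, 9.56 and 9.54 with siRNA1 and 9.91 and 9.89 with siRNA2. COL4A2 was at 11.27 and 11.13, 10.89 and 10.76, and 10.77 and 10.77. Both were lower on every siRNA array, by -0.61 and -0.40, and neither was called (limma adjusted p = 0.345 and 0.277). In SF539 COL4A1 was at 9.85 and 10.01 with scramble, 9.59 and 9.45 with siRNA1 and 9.26 and 11.47 with siRNA2. COL4A2 was at 11.08 and 10.94, 10.90 and 10.93, and 10.76 and 11.99. On siRNA2 replicate 1 both were the lowest of the line and on replicate 2 the highest. COL4A1 thus changed by 0.57 without replicate 1 and by -0.54 without replicate 2, opposite directions. Neither gene was called in SF539 in the fit of all arrays, and the direction of COL4A1 turned on a single array. In the pair COL4A6 and COL4A5 the members did not move alike in SNB19: COL4A5, at 8.46 and 8.43 with scramble, rose to 9.33 and 9.21 with siRNA1 and 8.88 and 8.80 with siRNA2, and COL4A6 (-0.23) was not called. COL4A4 was higher with siRNA1 (0.71) and not with siRNA2 (-0.31) in SNB19, and COL4A3 changed by 0.09 and -0.25. COL4A6, COL4A4 and COL4A3 lay below the lowest array median in every group, with COL4A3 near the lower quartile. Whether their low signal hides a change was not tested.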

How the data were processed

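Total RNA of 12 samples was hybridised to Affymetrix U133A 2.0 arrays, and the deposited values are log2 intensities from 2.01 to 14.14. Partek is named in the submitters' processing notes; how background, normalization and probe set summary were handled is not given in the sources used here, nor is a build. Of 16376 probe sets, 14038 had 1 gene, 792 several and 1546 none; 14028 were matched through Entrez identifiers to RefSeq names (GRCh38.p14), giving 8545 genes, each read from its brightest probe set. With limma 3.58.1 (lmFit, eBayes; R 4.3.3), 6 group means were estimated from the 12 arrays together (6 residual and 3.65 prior degrees of freedom), with two-sided tests and Benjamini-Hochberg adjustment over all genes at 0.05. Errors of changes are standard errors of the fit. The test was tried on simulated data with independent noise on every array. That noise holds no deviation shared by many genes of 1 array. The trial therefore does not bear on the gap between the SF539 siRNA2 arrays. Plots used matplotlib 3.10.9.

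The genes, lists and rules were chosen with earlier results of these data known. Named genes are, per family, up to the 5 largest called rises and falls with the same sign for both siRNAs, with partners of known dimers or trimers, and the 6 largest for the line difference and the siRNAs compared; from each list, the 2 largest each way. Values on every array are given for the 6 largest rises and falls per line. ITGA9, COL4A1, COL4A2, LAMA4, the markers and the printed sequences were singled out after their values were seen. Replicate numbers are shared across groups in the labels, but deviations of same-numbered arrays correlated between -0.18 and 0.109, so the numbers were not treated as pairs. The precision is limited by 2 arrays a group. Alternatives were a replicate block, median centring, quantile normalization, each line alone, the mean of probe sets, no dim genes (the lowest 40%), a trended and robust prior, array weights, a 1.5-fold minimum, single probe sets, and each array left out. The level of PARK2 was not analysed here.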

Additional observations from a re-analysis of the deposited data

Results flagged for a closer look

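For 20 genes the response to the PARK2 siRNAs differed between the lines by the limma test of the difference itself (SF539 change minus SNB19 change, log2, adjusted p under 0.05). Integrins were ITGB3 (-1.72), ITGB1 (-0.52), ITGA4 (0.49) and ITGA5 (0.88), and the name match ITGB1BP1 (-0.66). The 1 laminin was LAMB1 (-0.81). Collagens were COL11A1 (-1.60), COL14A1 (-1.37), COL6A3 (-1.13), COL9A3 (-0.67), COL15A1 (0.58), COL21A1 (1.21), COL16A1 (1.57) and COL13A1 (1.61). Proteases were ADAM9 (-0.70), ADAM20 (-0.57), ADAM10 (0.36), ADAMTS3 (0.95) and ADAMTS2 (1.29), and the inhibitor was TIMP3 (1.63). Median centring turned the split of these calls from 10 and 10 into 6 higher and 17 lower in SF539.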

How the results depend on the processing

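Counts of the 83 genes called ranged, over fits without 1 array, from 17 to 38 for the PARK2 siRNAs in SNB19, 7 to 40 in SF539, 17 to 37 (siRNA1) and 15 to 36 (siRNA2) in SNB19, 0 to 13 (siRNA1) and 14 to 40 (siRNA2) in SF539, 4 to 20 and 0 to 35 for siRNA2 against siRNA1 in SNB19 and SF539, 37 to 58 between the lines and 10 to 39 for the line difference. With 1 line's arrays alone the counts were 4 for SF539, 0 and 8 for its siRNA1 and siRNA2, and 0 for their difference. In SNB19 they were 42 for siRNA2 and 24 for the siRNA difference. Comparisons between the lines cannot be made in that setting. The fits without 1 SF539 siRNA2 array drop the gap of that pair from the estimated spread, so counts from them are not comparable with the others. A 1.5-fold minimum gave 17 in SNB19 and 14 for siRNA2 there. Array weights gave 8 and 13 for siRNA1 and siRNA2 in SF539, 20 for the siRNA difference in SNB19 and 1 in SF539, where median centring and the mean of probe sets each gave 3. Leaving out the dimmest 40% of genes gave 31 between the lines. With the replicate block, since the numbers are only shared labels, the counts were 27 in SNB19, 17 in SF539 and 48 between the lines, and no count moved by over 1.5 times. The mean of probe sets turned the sign of TNC in SNB19 (-0.05) and of ITGB1BP1 between the lines (-0.77). Single other probe sets turned it in SNB19 for ADAM12 (-0.11), ADAM20 (-0.01), ITGB1 (-0.01 and -0.04), PARVA (-0.12), TNC (-0.97), SDC1 (-0.25), SGCB (0.60) and JAG1 (-0.02), in SF539 for PTK2 (-0.09), FBLN1 (-0.18), CD47 (0.00) and MET (0.20), and between the lines for COL4A6 (0.09), ITGA4 (-0.21), ITGB1 (-0.05), ITGB4 (0.35) and ITGB1BP1 (-2.52). The causes were not tested. Of 152 named values 68 kept sign and call under all alternatives other than single probe sets. Genes near the lower quartile have changes bounded by background.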
